A study of Mus musculus with 10 samples.

Results

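Enterocyte progenitors (EP) were the cells that the authors' annotation of mouse intestinal organoids labels EP, and all of them were taken with no further selection. They numbered 2227 of 22139 annotated organoid cells, and of 25204 annotated cells in the whole series. Organoids are epithelial cultures grown from crypts, here of the proximal small intestine, in Matrigel, and RNA was captured from single cells in droplets. Each transcript molecule carried a unique molecular identifier (UMI), so levels are UMI counts scaled to a common total in each library and class of 1000000 (CPM). EP were set beside transit amplifying cells (TA), the dividing cells of the crypt, and enterocytes (EC), the absorptive cells of the villus, and EP of -VE-organoids beside EP of ENR-organoids.

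ENR-organoids (3 libraries) grew with EGF, Noggin and R-Spondin 1 and were at passage 2, 7 and 3 in replicates 1, 2 and 3. ENR replicate 3 is labelled as started from primary crypts, and the labels give no origin for ENR replicates 1 and 2. Hyper-organoids (3 libraries, passage 1, 6 and 3) grew with EGF, FGF2 and R-Spondin 1 conditioned medium, and with the small molecules VPA, EPZ6438, Pexmetinib, LDN193189 and GSK-3 Inhibitor XV. Hyper replicates 1 and 2 are labelled as started from ENR-organoids and Hyper replicate 3 from primary crypts. The -VE-organoids (2 libraries) received the Hyper medium without VPA, a histone deacetylase inhibitor, and without EPZ6438, which inhibits EZH2, a histone methyltransferase. They had been started from ENR-organoids and were sampled at passage 1 (replicate 1) and 6 (replicate 2). The media of -VE- and ENR-organoids therefore differ in several agents at once, and passage and origin differ as well, so that the part of any single one cannot be told apart. All groups shared EGF and a source of R-Spondin 1, and both media block BMP signalling, ENR with the protein Noggin and -VE with the kinase inhibitor LDN193189. The labels do not say whether the libraries of a group came from separate mice, so p-values measure the spread between these libraries only.

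In the intestine, stem cells at the crypt base give rise to TA cells, which divide while they move up and then commit to the absorptive or the secretory lineage. Absorptive progenitors leave the cell cycle as they become enterocytes and switch on brush border enzymes, nutrient transporters and lipid binding proteins. Wnt signals maintain the crypt base, Notch signals favour the absorptive fate, and BMP signals increase toward the villus.

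The EP class held 486, 635 and 809 cells in ENR replicates 1, 2 and 3, 105 and 184 cells in -VE replicates 1 and 2, and 8 cells over the 3 Hyper libraries. Its cells were deeply sequenced, with median UMIs per cell of 40689 to 51637 in ENR-organoids and 48824 and 34406 in -VE-organoids. The median share of mitochondrial UMIs lay between 7.87% and 8.67% in these 5 libraries. Summed over cells, EP gave 92588911 UMIs in ENR- and 11414119 in -VE-organoids, so the -VE values rest on fewer molecules. Cell barcodes shared between libraries numbered 0 to 5 for any pair of libraries among all annotated cells and 1 in total among EP.

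The label of the class was checked against its markers in the summed counts. The authors had named the class by markers that include Cfhr2, Rbp7, Dmbt1 and Pycard, so their levels describe how the label was given and are no independent check of it. Rbp7, which codes for a retinol binding protein, and Dmbt1, a secreted mucosal defence protein, were higher in EP than in TA and EC of every library. Rbp7 reached 50.0, 52.4 and 64.7 CPM in EP of ENR replicates 1 to 3 and 30.3 and 31.3 CPM in -VE replicates 1 and 2, against 6.37 to 29.9 CPM in TA and 15.6 to 49.6 CPM in EC. Dmbt1 lay between 896 and 1369 CPM in EP, 219 and 464 CPM in TA, and 456 and 885 CPM in EC. Cfhr2, a complement factor H related gene, and Fabp1, a fatty acid binding protein of enterocytes, stood between the neighbouring classes. Cfhr2 was at 12.1 to 77.5 CPM in EP, above the TA level and below the EC level of the same library. Fabp1 was at 388 to 936 CPM in EP, 54.0 to 175 CPM in TA, and 6175 to 11214 CPM in EC.

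Reg3a went against the label. This secreted antimicrobial lectin was at 1.49, 2.28, 0.911, 0.575 and 0.161 CPM in EP (ENR replicates 1 to 3, then -VE replicates 1 and 2). In EC the same libraries held 429, 487, 208, 97.8 and 13.5 CPM, so Reg3a marked EC and not EP in these sums. Pycard, the adaptor of inflammasomes, and Lgals2, a galectin, were higher in EP than in TA of every library. Pycard was at 848 to 1011 CPM in EP and at 854 to 1094 CPM in EC, so it did not set EP apart from EC. After thinning to equal depth, a UMI of the goblet cell mucin Muc2 was found in at most 1.28% of EP cells of a library, against 52.5% to 68.9% of goblet cells.

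**Figure D1:**
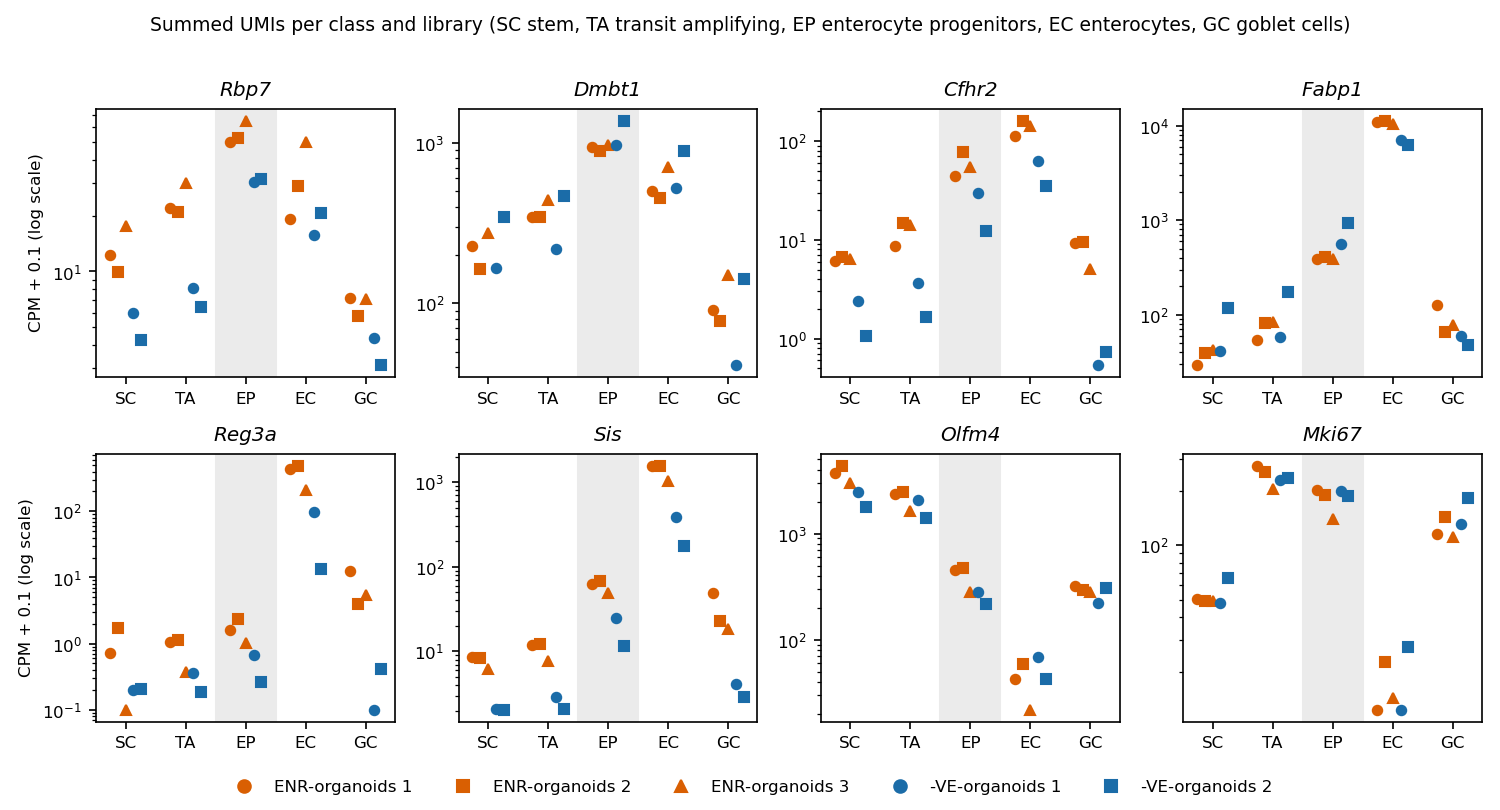
Summed UMIs of 8 genes as CPM (log scale, 0.1 CPM added) in stem cells (SC), TA, EP (grey band), EC and goblet cells (GC), with 1 point for each ENR (orange) and -VE (blue) library. Rbp7 and Dmbt1 are highest in EP, Cfhr2, Fabp1 and Sis step up from TA to EP to EC, Reg3a is high in EC alone among these classes, and Olfm4 steps down.

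Per cell, the same markers were counted after each cell had been thinned to 10000 UMIs, with 1 to 20 shallower EP cells left out of a library. A Cfhr2 UMI was present in 28.2%, 43.7% and 34.7% of EP in ENR replicates 1 to 3 and in 20.2% and 8.98% in -VE replicates 1 and 2. Goblet cells, which should lack it and which serve as the measure of free RNA in the droplets, gave 5.94%, 3.55% and 2.52% in ENR- and 0.617% and 0.560% in -VE-organoids. Before thinning, 56.6%, 75.6%, 65.9%, 43.8% and 17.9% of EP had a Cfhr2 UMI. Cfhr2 was thus found in EP above the goblet cell share of the same library in all 5. The proliferation marker Mki67 was found in 61.6% to 74.0% of thinned EP cells.

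Set against TA and EC of the same library, EP differed from TA in few genes and from EC in many. Because the classes were clustered on these genes, the class differences are given as a description with no test, as a log2 ratio of CPM with 5 CPM added to both sides. Of 8579 genes considered, 21 (0.245%) were at least 2-fold higher in EP than in TA in all 5 libraries, and 9 (0.105%) were at least 2-fold lower. Against EC, 552 genes (6.43%) were higher and 290 (3.38%) lower. No gene was at least 2-fold above, or at least 2-fold below, both neighbouring classes in all 5 libraries. The median over all genes considered was 0.01 against TA and 0.20 against EC.

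The 21 genes above TA held 8 of 32 drug and xenobiotic metabolism genes considered, 3 of 11 retinoid genes, 2 of 15 brush border enzymes and 1 of 19 lipid absorption genes. They held 0 of 24 genes in the list of nutrient and ion transporters, which does not include the ion transporter Slc26a3 named below. Arg2, a mitochondrial arginase, had the largest median log2 ratio (2.60), followed by the cellular retinol binding protein Rbp2 (2.49), Fabp1 (2.38) and the sialyltransferase St3gal4 (2.27). The sucrase-isomaltase gene Sis had 1.99, the carboxylesterase Ces2a 1.97, Cfhr2 1.87, the alcohol dehydrogenase Adh1 1.66 and the intestinal alkaline phosphatase Alpi 1.62. The others were Slc26a3, Gm3336, Coro2a, Rbp7, Fmo5, Sdcbp2, Ces2c, Cyp4f14, Cyp2b10, Gstm3, Dmbt1 and Cyp2c66. Of the 21, 17 (0.198% of the genes considered) were also at least 2-fold lower in EP than in EC in every library, so EP stood between the classes for them. The exceptions were Rbp7, Dmbt1, Gm3336 and Cfhr2.

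The 9 genes below TA were led by Olfm4, a secreted stem cell glycoprotein, with a median log2 ratio of -2.50. Olfm4 was at 452, 471 and 285 CPM in EP of ENR-organoids and 284 and 216 CPM in -VE-organoids, against 1390 to 2486 CPM in TA and 21.9 to 68.1 CPM in EC. Igfbp4 and Ascl2 followed (both -1.51), then Gkn3, Lgr5, Rgcc, Ifitm3, Axin2 and Slco3a1. Lgr5, the R-spondin receptor of crypt base stem cells, Ascl2, their transcription factor, and Axin2, a feedback inhibitor of Wnt signalling, are Wnt targets. Of these 9 genes, 7 (0.0816%) were at least 2-fold higher in EP than in EC in every library, the exceptions being Lgr5 and Slco3a1.

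The sequence before 3 of the genes that stepped up from TA to EP to EC is shown, because Sis, Fabp1 and Cfhr2 are an enzyme, a lipid carrier and a label marker that the comparisons return to. The sequences are RefSeq's (build GRCm38.p6), read 5′ to 3′ on the gene's strand within the 250 bases before the RefSeq start, without bases that lie inside the annotated gene. Capitals mark any of 3 motifs on either strand. The first was GTTAAT, read as ATTAAC on the other strand, letters that occur in binding sites of HNF1 factors. The second was CAAAGTC, with the reverse complement GACTTTG, of HNF4 factors. The third was TTTATGG, with the reverse complement CCATAAA, of CDX factors, and all of these factors work in the intestinal epithelium. None of these motifs overlaps another in the sequences printed. Sis lies at chr3:72967864-72968113 (minus strand), Fabp1 at chr6:71199629-71199826 (plus strand) and Cfhr2 at chr1:139858703-139858949 (minus strand).
Sis: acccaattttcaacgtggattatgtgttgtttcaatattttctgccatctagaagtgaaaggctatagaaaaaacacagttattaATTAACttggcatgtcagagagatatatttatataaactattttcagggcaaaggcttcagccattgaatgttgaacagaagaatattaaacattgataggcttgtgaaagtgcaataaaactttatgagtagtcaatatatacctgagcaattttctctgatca
Fabp1: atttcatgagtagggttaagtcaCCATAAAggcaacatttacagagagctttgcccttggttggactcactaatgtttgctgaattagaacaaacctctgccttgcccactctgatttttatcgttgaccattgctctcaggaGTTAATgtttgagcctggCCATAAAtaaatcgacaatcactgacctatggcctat
Cfhr2: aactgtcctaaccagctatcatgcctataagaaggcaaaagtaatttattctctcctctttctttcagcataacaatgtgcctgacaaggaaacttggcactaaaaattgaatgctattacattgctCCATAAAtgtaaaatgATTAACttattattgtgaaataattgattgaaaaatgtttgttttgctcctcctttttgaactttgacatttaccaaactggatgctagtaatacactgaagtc

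Sis held 1 GTTAAT-type match, Fabp1 held 1 GTTAAT-type and 2 TTTATGG-type matches, and Cfhr2 held 1 of each of these. Over all 32851 windows of 250 bases, 6.43% held GTTAAT, 3.84% CAAAGTC and 2.43% TTTATGG on either strand. Of the 21 genes above TA, 19 were in the promoter table with 23 windows, of which 5 (21.7%) held GTTAAT, 4 (17.4%) CAAAGTC and 3 (13.0%) TTTATGG. Of the 9 genes below TA, 7 were in the table with 7 windows, of which 1 held GTTAAT, 0 held CAAAGTC and 0 held TTTATGG. A match of letters is a description of the window and was not tested as a site.

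By function, EP were near TA in cell cycle genes and far below EC in most lists of enterocyte genes. Over all genes considered, 6.43% were at least 2-fold higher in EP than in EC in every library and 3.38% lower. Against TA these shares were 0.245% and 0.105%. Of 20 mitosis genes, all 20 were at least 2-fold higher in EP than in EC in every library (median log2 ratio 2.87), while none reached 2-fold against TA (median -0.56). Of 19 S phase genes, 17 were higher in EP than in EC (median 2.05), and the median against TA was 0.17. Among drug and xenobiotic metabolism genes considered, 8 of 32 were higher in EP than in TA (median 0.73) and 28 were lower in EP than in EC (median -2.34). Brush border enzymes had a median of 0.30 against TA and -2.87 against EC, with 10 of 15 lower in EP than in EC. For nutrient and ion transporters the medians were 0.25 and -1.83, with 14 of 24 lower than in EC, and for lipid absorption genes 0.63 and -2.19. Of 14 Wnt targets considered, 3 were lower in EP than in TA and 7 were higher in EP than in EC (medians -0.73 and 1.16).

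Single cells were compared after thinning to 10000 UMIs. The median EP cell held 25 to 33 mitosis UMIs, depending on the library, against 45 to 50 in TA and 1 or 2 in EC. For S phase genes EP medians (11 to 13) lay among those of TA (9 to 12) and above those of EC (1 or 2). The median EP cell held 2 brush border UMIs in each library, against 1 or 2 in TA and 7 to 20.5 in EC, so EP were close to TA in this list. Of 5 enterocyte markers (Fabp1, Apoa1, Reg1, Rbp2 and Apoa4) it held 3 to 6 UMIs, against 0 or 1 in TA and 42 to 124 in EC.

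**Figure D2:**
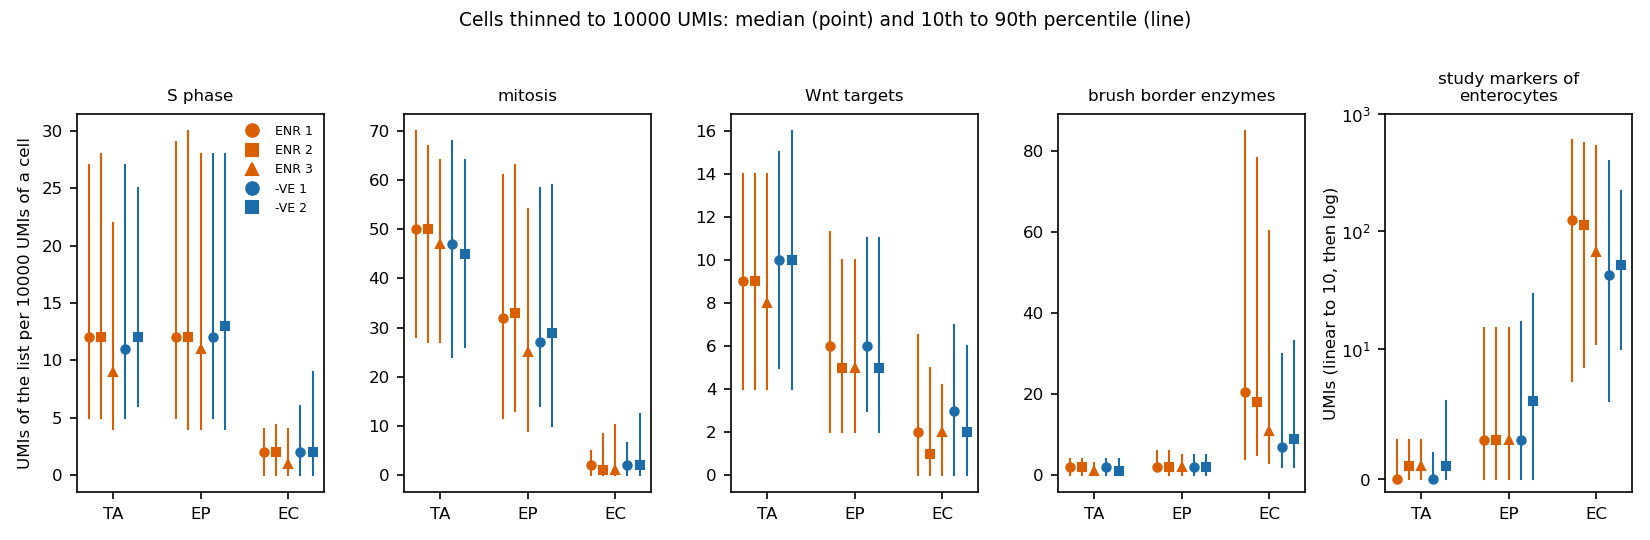
UMIs per thinned cell (10000 UMIs) of 5 gene lists in TA, EP and EC, with the median of each library as a point and the 10th to 90th percentile as a line. EP medians are near those of TA for S phase, between TA and EC for mitosis and Wnt targets, and far below EC for brush border enzymes and enterocyte markers.

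EP varied among themselves. Within each library, cells with more enterocyte marker UMIs tended to hold fewer Wnt target UMIs, with Spearman's rho of -0.38, -0.34 and -0.34 over 478, 625 and 789 cells of ENR replicates 1 to 3 and -0.22 and -0.51 over 104 and 167 cells of -VE replicates 1 and 2. The same marker sum rose with brush border UMIs, with rho between 0.30 and 0.42. With mitosis UMIs it rose weakly in ENR replicates 1 to 3 (rho 0.19, 0.25 and 0.15) and had rho of 0.08 and -0.01 in -VE replicates 1 and 2. With S phase UMIs rho lay between -0.27 and -0.06. These are descriptions across cells that share a library, and the enterocyte marker sum also rose with the depth of the cell (rho 0.17 to 0.41). The mitosis sum rose with depth in ENR replicates 1 to 3 (rho 0.30, 0.35 and 0.46) by more than with the enterocyte markers, and had rho of 0.27 and -0.01 with depth in -VE replicates 1 and 2. The 90th percentile of the enterocyte marker sum was 15 UMIs in all 3 ENR libraries and 16.8 and 29.4 UMIs in -VE replicates 1 and 2, at medians of 3, 3, 3, 3 and 6 UMIs.

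EP formed a smaller part of the annotated cells in -VE- than in ENR-organoids, and almost none in Hyper-organoids. Their share was 22.2%, 24.4% and 34.5% in ENR replicates 1 to 3, 4.39% and 4.29% in -VE replicates 1 and 2, and 0.107%, 0.0852% and 0.101% in Hyper replicates 1 to 3. The groups did not overlap. The means were 27.0% ± 6.53 (SD, n = 3), 4.34% ± 0.0758 (SD, n = 2) and 0.0976% ± 0.0111 (SD, n = 3). No test was made, because genes that set EP apart from TA, such as Sis and Fmo5, differed between the media, and because for a single share 3 libraries against 2 allow no p below 0.1 in an exact permutation test.

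Relative to neighbouring classes, ENR-organoids held 0.509, 0.613 and 1.05 EP for each TA cell, and -VE-organoids 0.0894 and 0.0807. For each EP cell there were 0.440, 0.535 and 0.361 EC in ENR-organoids and 1.42 and 1.33 in -VE-organoids. The 8 Hyper cells were too few to be summed by library. Together they held 0 Cfhr2 UMIs, 3 Rbp7 UMIs and 300 Dmbt1 UMIs, while Mki67 was found in all 8 (110 UMIs) and Fabp1 in 6 (2798 UMIs). Fabp1 was thus at 7625 CPM in them, within the EC range of the ENR and -VE libraries (6175 to 11214 CPM). It was above the EP range there (388 to 936 CPM). The median share of mitochondrial UMIs was 16.5%, 8.43% and 16.7% in EP of Hyper replicates 1 to 3.

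**Figure D3:**
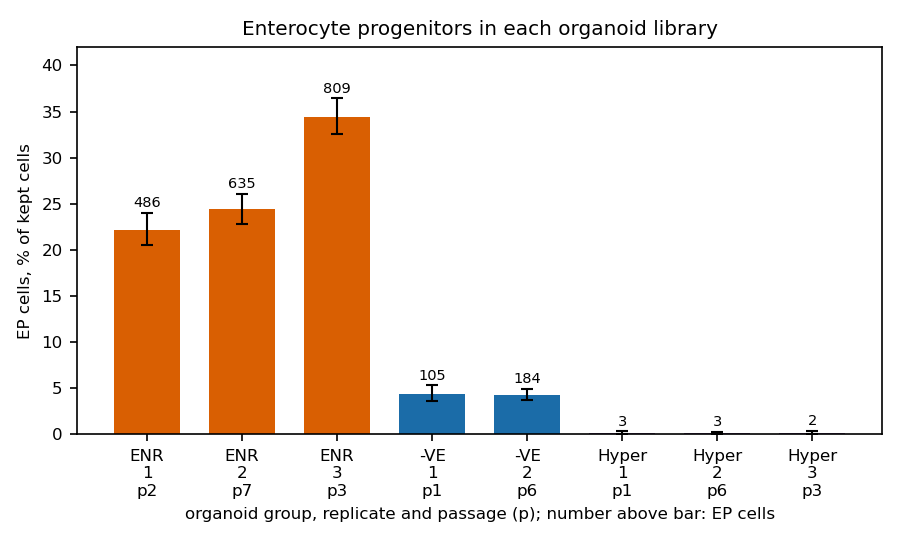
Share of annotated cells labelled EP in each of the 8 organoid libraries, in percent, with exact binomial 95% intervals (counting error only), the passage under each bar and the number of EP cells above it. The 3 ENR libraries lie between 22.2% and 34.5%, the 2 -VE libraries at 4.29% and 4.39%, and the Hyper libraries between 0.0852% and 0.107%.

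Between media, EP changed in few genes. Of 12138 genes tested with edgeR's quasi-likelihood test, 55 (0.453%) were called, which required an adjusted p under 0.05 and a 2-fold change. In -VE-organoids 25 of them were higher (0.206%) and 30 lower (0.247%). The median log2 fold change over all genes was 0.00, and 1692 genes (13.9%) had an unadjusted p under 0.05. The 3 ENR values did not overlap the 2 -VE values for 4127 genes (34% of those tested), 1768 higher (14.6%) and 2359 lower (19.4%). In the same libraries 243 of 13223 genes (1.84%) were called in TA and 415 of 10811 (3.84%) in EC, from sums of different depth. Of the 55 genes called in EP, 40 (72.7%) were also called in TA and 31 (56.4%) in EC. All 55 were tested in TA, where 52 had the same direction, and 53 in EC, where 50 did. Most of these changes were thus not particular to EP, and the classes share their libraries.

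Fewer genes were called without -VE replicate 2 and more without -VE replicate 1, 7 and 83. Of the 7, 6 were among the 55 (Fmo5, Id3, Ces2a, Cyba, Apoa4 and Gsta1). With 1 -VE library the spread came from the ENR libraries alone and the -VE library was assumed to vary like them, so a lost call there is not in itself a smaller change. Without -VE replicate 2, 54 of the 55 genes could be tested, 43 stayed at least 2-fold apart and 15 had a larger fold. All 54 kept their direction, which was largely fixed beforehand, because the groups of all 55 genes did not overlap. Without ENR replicates 1, 2 or 3 there were 29, 34 and 91. In the paragraphs that follow, an adjusted p is edgeR's, log2 values are -VE over ENR with their standard error (SE), and a fall or rise is a call. Groups described there as apart add no support to a call. All 55 called genes had such groups, as did 34% of all genes tested. Where leaving out -VE replicate 2 ended the call of a named gene, the log2 and the adjusted p without that library are given, except for Cyp26b1, whose fitted fold is no bound because it was at 0 in EP of both -VE libraries, and Cyp1a1.

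**Figure D4:**
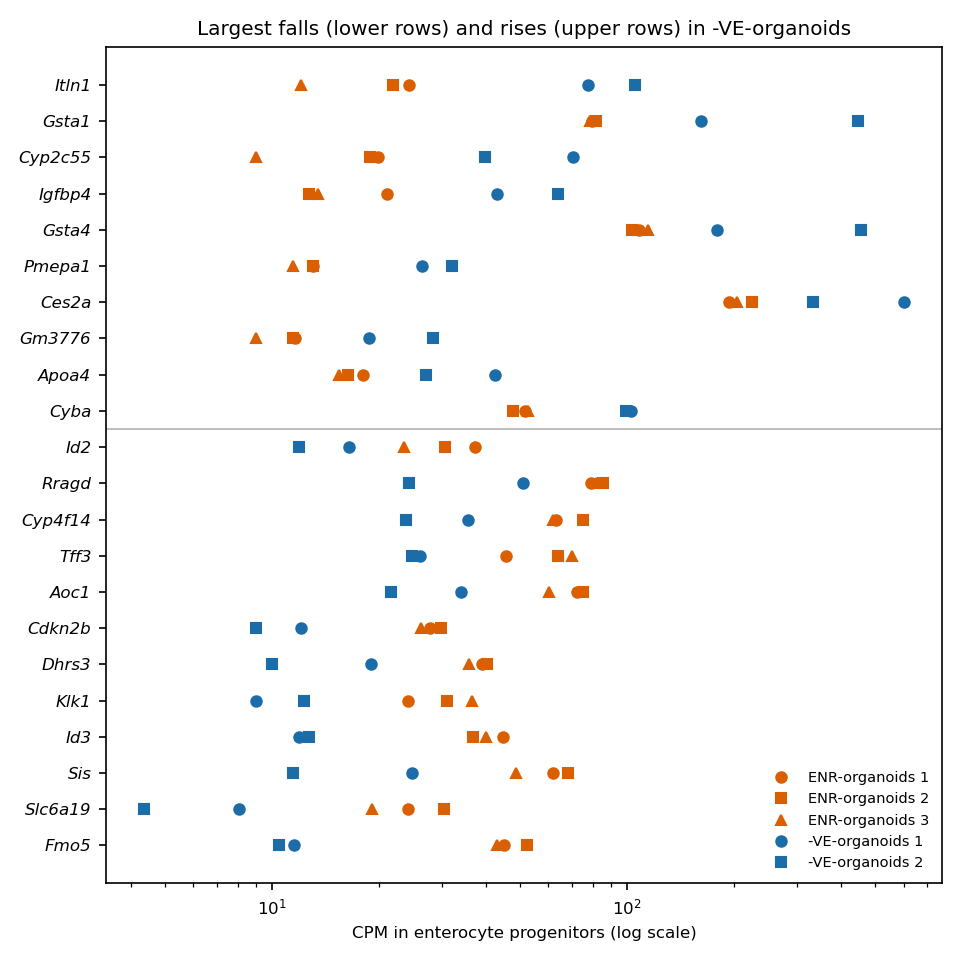
CPM in EP (log scale) of the called genes with at least 20 CPM that rose or fell most, with 1 point per ENR (orange) and -VE (blue) library. The genes were chosen among those whose groups did not overlap, and the -VE points lie to the left for the 12 falls and to the right for the 10 rises.

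Brush border and transporter genes were lower in part. Sis (chr3:72888557-72967863, minus strand in mm10), which splits sucrose and isomaltose, stood at 61.8, 67.9 and 48.6 CPM in ENR replicates 1 to 3 and at 24.7 and 11.5 CPM in -VE replicates 1 and 2. All -VE values lay below all ENR values, and Sis fell by 1.72 (SE 0.25, adjusted p = 0.0164; -1.25 and 0.0921 without -VE replicate 2). In cells thinned to 10000 UMIs a Sis UMI was found in 31.4%, 31.5% and 24.6% of EP of ENR- and in 15.4% and 8.38% of EP of -VE-organoids (63.4%, 66.6%, 48.8%, 33.3% and 18.5% before thinning). Goblet cells of the same libraries gave 13.9%, 12.8% and 6.72% and then 3.09% and 3.08%, so the background share was lower in -VE-organoids too, and EP lay above it in all 5. Slc6a19, the sodium-coupled carrier of neutral amino acids, was at 24.2, 30.5 and 19.1 CPM against 8.05 and 4.36 CPM. The groups were apart again, with a fall of 2.00 (SE 0.28, adjusted p = 0.0164; -1.59 and 0.195 without -VE replicate 2).

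Enpep, the aminopeptidase that cleaves acidic residues, was at 9.95, 11.1 and 5.35 CPM against 0.767 and 1.77 CPM. It fell by 2.71 (SE 0.50, adjusted p = 0.0404), a call that leaving out any of ENR replicates 1 and 2 and -VE replicates 1 and 2 ended (adjusted p = 0.0767, 0.0578, 0.165 and 0.231), although the log2 without them stayed at -2.63, -2.51, -2.28 and -3.49. Slc51a, a subunit of the basolateral bile acid exporter, was at 7.29, 8.71 and 8.88 CPM against 1.92 and 1.61 CPM and fell by 2.23 (SE 0.25, adjusted p = 0.00894; -2.10 and 0.0933 without -VE replicate 2). Over the lists, 2 of 16 brush border enzymes fell and none rose (median log2 -0.32), and 2 of 24 transporters fell and none rose (median -0.04). Over all genes tested 0.247% fell and 0.206% rose, at a median of 0.00.

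Other brush border enzymes did not pass. Mgam, maltase-glucoamylase, had a log2 of -0.34 (adjusted p = 0.181), and the dipeptidyl peptidase Dpp4 0.25 (adjusted p = 0.446). Alpi was at 32.2, 27.1, 27.9 and 32.0 CPM in the 3 ENR libraries and -VE replicate 1 and at 117 CPM in -VE replicate 2 alone (log2 1.40, adjusted p = 0.115; 2.03 and 0.000231 without -VE replicate 1, 0.16 and 0.776 without -VE replicate 2, 1.42 and 0.00278 in thinned cells).

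Genes that handle retinoids, the vitamin A derivatives, were lower in part too. Dhrs3, a retinaldehyde reductase, stood at 38.9, 40.3 and 35.9 CPM in ENR- and 19.0 and 10.0 CPM in -VE-organoids. The groups were apart, and Dhrs3 fell by 1.41 (SE 0.19, adjusted p = 0.0151; -1.001 and 0.0577 without -VE replicate 2). Cyp26b1, which degrades retinoic acid, gave 35, 76 and 87 UMIs in EP of the ENR libraries and 0 and 0 in -VE-organoids. Against a floor of 3 counts over the -VE group (0.263 CPM), Cyp26b1 was at least 8.14-fold lower, a bound that takes UMIs as independent. In ENR replicates 1 to 3 it was found in 5.56%, 5.83% and 5.69% of EP cells. The 5 richest cells there held 37.1%, 42.1% and 32.2% of its UMIs. Its call (adjusted p = 0.0428) ended without ENR replicate 2, -VE replicate 1 or -VE replicate 2 (adjusted p = 0.083, 0.104 and 0.255). These were the 2 falls among 16 retinoid genes tested, with no rise and a list median of -0.23, beside falls in 0.247% of all genes tested.

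No other gene of the retinoid list was called. Rbp7 was at 30.3 and 31.3 CPM in -VE- against 50.0 to 64.7 CPM in ENR-organoids, with a log2 of -0.84 (SE 0.15, adjusted p = 0.0378), under the 2-fold bound. Rbp2 had 199, 215 and 197 against 293 and 382 CPM and a log2 of 0.75 (adjusted p = 0.0155), also under the bound. Isx, a homeobox repressor of vitamin A uptake genes, had 81.4, 91.5 and 84.7 against 47.0 and 13.2 CPM, and a log2 of -1.53 that missed the adjusted threshold (adjusted p = 0.0726; -2.69 and 0.000243 without -VE replicate 1, -0.86 and 0.0695 without -VE replicate 2). Isx was called under 6 of 15 alternatives, among them thinned cells (-1.60, adjusted p = 0.00265) and equal numbers of cells (-1.40, adjusted p = 0.0451). Adh1 was at 280 to 288 CPM in ENR- and 102 and 195 CPM in -VE-organoids (log2 -0.91, adjusted p = 0.0739; -1.47 and 0.00349 without -VE replicate 2, -0.53 and 0.043 without -VE replicate 1). Adh4, a further alcohol dehydrogenase that is not in the list and was chosen after its values were seen, held 90, 136 and 160 UMIs against 3 and 1 and fell by 3.52 (adjusted p = 0.0155; -2.82 and 0.168 without -VE replicate 2, -1.74 and 0.403 in thinned cells).

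Of the BMP target genes, 2 of the Id family, which code for inhibitors of basic helix-loop-helix factors, fell. Id3 (chr4:136143497-136145755, plus strand) was at 44.8, 36.8 and 40.1 CPM in ENR- and at 11.9 and 12.7 CPM in -VE-organoids. The groups lay far apart, with a fall of 1.70 (SE 0.13, adjusted p = 0.00191), which was called under each of the 15 alternatives run. Id2 was at 37.3, 30.8 and 23.5 against 16.5 and 11.9 CPM and fell by 1.09 (SE 0.21, adjusted p = 0.0499). The Id2 call ended without ENR replicate 1 or 2 or -VE replicate 1 or 2 (log2 -0.94, -1.09, -1.33 and -0.87, adjusted p = 0.0767, 0.0937, 0.0812 and 0.409). Id1 had a log2 of -0.76 (SE 0.14, adjusted p = 0.0399), under 2-fold. The other BMP genes were not called, giving 0 rises and 2 falls among 12 tested (median -0.12), beside falls in 0.247% of all genes tested.

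Pmepa1, a transmembrane protein that restrains TGF-beta signalling, stood at 13.1, 13.0 and 11.4 CPM in ENR- and 26.5 and 32.1 CPM in -VE-organoids. It rose by 1.25 (SE 0.11, adjusted p = 0.00275; 1.10 and 0.052 without -VE replicate 2). Of 16 Wnt targets tested, 1 rose and none fell (median 0.21), beside rises in 0.206% of all genes tested. This was Sp5, a transcription factor, at 4.15, 3.67 and 4.20 against 6.90 and 9.04 CPM (log2 1.02, SE 0.19, adjusted p = 0.0447), and leaving out ENR replicate 1 or 2 or -VE replicate 1 or 2 ended that call (log2 1.03, 0.94, 1.18 and 0.80, adjusted p = 0.121, 0.134, 0.055 and 0.386). Igfbp4, an insulin-like growth factor binding protein of crypt cells, was at 21.1, 12.7 and 13.5 against 42.9 and 64.1 CPM and rose by 1.80 (SE 0.22, adjusted p = 0.0118; 1.47 and 0.128 without -VE replicate 2). Lgr5 was within the spread (22.7 to 33.9 CPM, log2 0.16, adjusted p = 0.675), and Olfm4 had a log2 of -0.66 (adjusted p = 0.15).

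Drug metabolism genes changed in both directions, 5 of 33 higher and 3 lower, with a median of -0.10. Over all genes tested 0.206% were called higher and 0.247% lower. The flavin monooxygenase Fmo5 (chr3:97628804-97655282, plus strand, in the GENCODE annotation of mm10) was at 44.9, 52.3 and 43.1 CPM in ENR- and 11.5 and 10.5 CPM in -VE-organoids. No values came close between the groups, and Fmo5 fell by 2.07 (SE 0.13, adjusted p = 0.00051), called under each of the 15 alternatives. In thinned cells an Fmo5 UMI was found in 30.8%, 33.0% and 31.3% of EP of ENR- and in 7.69% and 7.78% of EP of -VE-organoids. Goblet cells gave 31.7%, 24.1% and 24.4% and then 6.79% and 3.36%, and TA gave 16.9%, 16.4% and 16.2% and then 2.05% and 1.37%. The share of Fmo5 was thus lower in -VE-organoids in all 3 classes, above TA in EP of every library and above goblet cells in 4 of 5, and the part of free RNA in it was not tested. Cyp4f14, a fatty acid hydroxylase, had 63.2, 75.0 and 61.9 against 35.7 and 23.9 CPM and fell by 1.16 (SE 0.15, adjusted p = 0.0133; -0.89 and 0.0921 without -VE replicate 2). Akr1c14, a hydroxysteroid dehydrogenase, fell by 1.24 (adjusted p = 0.0164). Without -VE replicate 1 or 2 its log2 stayed at -1.26 and -1.23, with adjusted p = 0.0568 and 0.186, and in thinned cells it was -0.92 (adjusted p = 0.261), under 2-fold.

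The 5 rises included the glutathione transferases Gsta1 and Gsta4. Gsta1 was at 79.5, 81.7 and 78.3 CPM against 162 and 445 CPM and rose by 1.95 (SE 0.30, adjusted p = 0.0218; 0.0661 and 0.0551 without ENR replicate 1 and 2). Its log2 was 2.49 without -VE replicate 1 and 1.03 without -VE replicate 2. Gsta4 was at 108, 103 and 114 against 179 and 455 CPM and rose by 1.57 (SE 0.28, adjusted p = 0.0392; 0.103 and 0.096 without ENR replicate 1 and 2, and 0.73 and 0.0801 without -VE replicate 2). For both, -VE replicate 2 was more than 2-fold above -VE replicate 1. Gm3776, a close relative of Gsta1 whose reads the counting may have split, also rose (1.18, adjusted p = 0.0172; 0.83 and 0.215 without -VE replicate 2), so the share of each is uncertain.

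The carboxylesterase Ces2a was at 193, 225 and 204 CPM in ENR- and 602 and 333 CPM in -VE-organoids. Here -VE replicate 1 was the higher one, and Ces2a rose by 1.19 (SE 0.19, adjusted p = 0.0258), against 0.70 without -VE replicate 1 and adjusted p = 0.0794 and 0.0551 without ENR replicate 1 and 2. The cytochrome P450 genes Cyp2c55 and Cyp3a25 rose as well. Cyp2c55 had 19.8, 18.9 and 8.99 against 70.5 and 39.7 CPM (log2 1.82, SE 0.31, adjusted p = 0.0327; 1.35 and 0.161 without -VE replicate 1, 2.18 and 0.0921 without -VE replicate 2). Cyp3a25 had 2.14, 2.22 and 1.32 against 10.5 and 6.94 CPM (log2 2.22, SE 0.28, adjusted p = 0.012), and without -VE replicate 2 the log2 was larger and missed the threshold (2.5, adjusted p = 0.0577). Cyp1a1, a target of the aryl hydrocarbon receptor that was also chosen after its values were seen, held 0, 4 and 0 UMIs in ENR- and 8 and 11 UMIs in -VE-organoids. The pooled ratio was 38.5, with a 95% counting interval of 12.8 to 156 that takes UMIs as independent. In -VE replicate 1 these UMIs lay in 2.86% of EP cells, with up to 6 in 1 cell. In -VE replicate 2 the 5 richest cells held 72.7% of them. The call of Cyp1a1 (adjusted p = 0.0299) ended without ENR replicate 1 (adjusted p = 0.0644) or -VE replicate 1 (log2 5.22). Without -VE replicate 2 the gene did not pass the filter on low counts.

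Of 18 lipid absorption genes, 2 rose and none fell (median 0.15), beside rises in 0.206% of all genes tested. Apoa4, an apolipoprotein of chylomicrons, was at 18.1, 16.4 and 15.4 CPM against 42.6 and 27.1 CPM (log2 1.08, SE 0.16, adjusted p = 0.0192). In thinned cells an Apoa4 UMI was found in 13.8%, 12% and 7.35% of EP of ENR- and in 11.5% and 6.59% of EP of -VE-organoids, against 7.92%, 9.93% and 2.52% and then 9.26% and 6.44% of goblet cells. In -VE replicates 1 and 2 the 5 richest cells held 85.6% and 67.3% of the Apoa4 UMIs, against 24.8%, 13.9% and 32.6% in ENR-organoids. Without the 5% of EP cells of each library richest in enterocyte markers the difference was 0.12 (adjusted p = 0.865), and without -VE replicate 1 it was 0.72.

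Apoa1, its neighbour in the genome, had a log2 of 0.99 (SE 0.15, adjusted p = 0.0172), under the bound, and its 5 richest cells held 40.3%, 25.1% and 40.8% of the UMIs in ENR- and 90% and 71.8% in -VE-organoids. Without the 5% of cells richest in enterocyte markers Apoa1 had 0.64 (adjusted p = 0.22), and with equal numbers of cells 1.93 (adjusted p = 0.000351), which was called. Scarb1, a lipoprotein receptor, rose by 1.38 (SE 0.25, adjusted p = 0.0378), a call that ended without ENR replicate 1 or 2 or -VE replicate 2 (log2 1.46, 1.42 and 0.80, adjusted p = 0.0662, 0.0656 and 0.363). Fabp1 was at 388, 409 and 391 against 556 and 936 CPM, with a log2 of 0.93 (SE 0.17, adjusted p = 0.0381), under the 2-fold bound. It had 1.25 (adjusted p = 0.000879) without -VE replicate 1, 0.50 (0.116) without -VE replicate 2 and 0.80 (0.145) without the cells richest in enterocyte markers, 1.40 (0.009) with equal numbers of cells, and adjusted p = 0.104 and 0.0866 without ENR replicate 1 and 2. Over the 5 enterocyte markers 1 rose, Apoa4, and none fell (median 0.93), beside rises in 0.206% of all genes tested. Of the 5, 4 had a positive log2 and 1, Reg1, a negative log2 (-0.78, adjusted p = 0.427). Cholesterol synthesis genes were not called (0 of 21, median -0.16), and Hmgcs1, the cytosolic synthase of that pathway, had a log2 of -0.43 (adjusted p = 0.0321).

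Markers of other lineages were followed in the same sums. Of 7 Paneth cell markers 1 rose, the lectin Itln1, at 24.3, 21.9 and 12.1 CPM in ENR- and 77.6 and 105 CPM in -VE-organoids (log2 2.27, SE 0.23, adjusted p = 0.00671; 2.03 and 0.0847 without -VE replicate 2). Over all genes tested 0.206% rose. Itln1 was also higher in TA of -VE-organoids (82.9 and 160 CPM against 27.8 to 42.3) and in goblet cells (5116 and 7201 CPM against 3244 to 4288). In thinned cells an Itln1 UMI was found in 16.1%, 14.2% and 7.35% of EP of ENR- and in 29.8% and 40.7% of EP of -VE-organoids. EC, which should lack it, gave 9.14%, 11.01% and 3.72% and then 24.1% and 34.8%, and TA of every library lay above EP, so these shares moved alike in the 3 classes and are not read as expression in EP. Lyz1, the Paneth cell lysozyme, overlapped between groups in EP (55.9, 56.6 and 35.7 against 70.4 and 33.2 CPM). The 6 Paneth markers other than Itln1 summed to 156, 167 and 110 CPM in EP of ENR- and 152 and 104 CPM in EP of -VE-organoids, which overlap. Without the 5% of cells richest in goblet and Paneth markers the Itln1 difference was 2.44 (adjusted p = 0.014).

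Tff3, a trefoil peptide of goblet cells, was at 45.6, 64.0 and 70.1 CPM against 26.1 and 24.8 CPM and fell by 1.23 (SE 0.21, adjusted p = 0.0293). The call ended without ENR replicate 2 or -VE replicate 1 or 2 (adjusted p = 0.0578, 0.102 and 0.259), with a log2 of -1.19, -1.27 and -1.19. A single cell of ENR replicate 2 held 447 Tff3 UMIs, and the 5 richest cells held 39.3%, 49.5% and 47.4% of the UMIs in ENR-organoids. Without the 5% of cells richest in goblet and Paneth markers the difference was -0.28 (adjusted p = 0.429). It was the 1 call among 6 goblet markers tested (median 0.09), whose sum in EP was 194 to 232 CPM in ENR- and 167 to 181 CPM in -VE-organoids. Over all genes tested 0.247% fell. Enteroendocrine markers had 0 calls of 5 (median -0.25). No tuft or stromal marker passed the filter on low counts, and the 1 immune marker that did was not called (log2 -0.05).

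No proliferation gene passed the test. None of 19 S phase and 20 mitosis genes was called in either direction (medians 0.09 and -0.08), and Mki67 was at 202, 189 and 139 CPM against 200 and 187 CPM (log2 0.16, adjusted p = 0.637). Of 10 cell cycle inhibitors tested 1 fell and none rose (median -0.17), beside falls in 0.247% of all genes tested. Cdkn2b, an inhibitor of the cyclin D kinases, was at 27.8, 29.9 and 26.2 CPM in ENR- and 12.1 and 9.04 CPM in -VE-organoids and fell by 1.40 (SE 0.13, adjusted p = 0.00431; -1.20 and 0.0577 without -VE replicate 2). The antiproliferative genes Btg1 and Btg2 both had a log2 of -0.55 (adjusted p = 0.012 and 0.0428), under the 2-fold bound.

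Further genes among the largest changes belonged to none of the lists. Aoc1, the diamine oxidase that degrades histamine, had 72.2, 75.2 and 60.3 against 34.1 and 21.6 CPM and fell by 1.31 (SE 0.16, adjusted p = 0.012; -1.002 and 0.0801 without -VE replicate 2). Klk1, tissue kallikrein, had 24.2, 31.2 and 36.7 against 9.01 and 12.3 CPM and fell by 1.51 (adjusted p = 0.0225; -1.32 and 0.11 without -VE replicate 1, -1.76 and 0.178 without -VE replicate 2). Rragd, a GTPase of the mTORC1 pathway, fell by 1.13 (adjusted p = 0.0495; 0.0975 and 0.108 without ENR replicate 1 and 2; -1.74 without -VE replicate 1, -0.67 and 0.0921 without -VE replicate 2). Cyba, a subunit of NADPH oxidases, had 51.7, 47.7 and 52.7 against 102 and 99.1 CPM and rose by 1.01 (SE 0.08, adjusted p = 0.00221), just past 2-fold and at 0.95 and 0.98 without ENR replicate 2 or -VE replicate 1. In each of these 4 genes the values of the groups were apart, which was a condition for naming them.

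Several lists had no call in EP in either direction. These were lists built on the study's markers and extended beyond the genes its methods name, for EP (5 tested, median -0.20), TA (5, -0.01) and stem cells (5, 0.16). The same held for antimicrobial genes (15, -0.17), complement (5, 0.16), antigen presentation and interferon (11, -0.05), enterocyte transcription factors (26, -0.10), Notch pathway genes (12, -0.10) and ERK feedback genes (14, -0.04). For the EP genes that the methods name, the log2 was -1.51 (Cfhr2), -0.84 (Rbp7), -0.20 (Pycard) and 0.34 (Dmbt1). Cells were placed in EP by clustering on genes such as these, so their values within EP partly reflect how the class was set. Of the 3 markers of the label none was called, and Cfhr2 was at 44.6, 77.5 and 55.0 against 29.9 and 12.1 CPM (log2 -1.51, adjusted p = 0.0726; -2.28 and 0.0361 without -VE replicate 1, -0.97 and 0.426 without -VE replicate 2, -1.61 and 0.00933 in thinned cells). The groups did not overlap for Cfhr2, which 34% of all genes tested shared. Dissociation stress genes had 0 calls of 10 and a median of -0.58, the lowest median among lists of 10 or more genes, and their sum in EP was 1291 to 1624 CPM in ENR- and 812 to 1022 CPM in -VE-organoids. Egr1, an immediate early factor of that list, had 166, 142 and 176 against 102 and 64.7 CPM (log2 -0.94, SE 0.18, adjusted p = 0.0427; -1.03 without ENR replicate 2 and -1.31 without -VE replicate 1, both past 2-fold, and -0.64 and 0.237 without -VE replicate 2).

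Whether EP responded differently from TA was tested directly, as the interaction of class and medium with the library as a block. Of 12927 genes 19 (0.147%) differed, 13 with a higher (0.101%) and 6 with a lower (0.0464%) -VE effect in EP. Fmo5 fell by 2.07 in EP and by 3.43 in TA, a difference of 1.37 (SE 0.19, adjusted p = 0.000217; 0.0556 in thinned cells). The sulfotransferase Sult1d1 was at 100, 111 and 108 CPM in EP of ENR- and 56.4 and 63.9 CPM in EP of -VE-organoids, against 54.3, 52.6 and 52.7 and then 14.5 and 13.3 CPM in TA. Its level was thus lower in both classes of -VE-organoids, by less in EP, with a difference of 1.14 (SE 0.09, adjusted p = 4.24e-07). This was under 2-fold in thinned cells (0.74) and without -VE replicate 2 (0.96).

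For the other named differences a few cells carried part of the value. Apoa4 had 1.51 (SE 0.24, adjusted p = 0.000709) and 0.51 (adjusted p = 0.305) without the 5% of EP and TA cells richest in enterocyte markers, and Apoa1 1.30 and 0.94 in the same way. Tff3 had -1.26 (SE 0.19, adjusted p = 0.000564) and -0.08 (adjusted p = 0.898) without the cells richest in goblet and Paneth markers. Sis (-1.72 in EP, -2.14 in TA), Dhrs3 (-1.41 and -1.54), Id3 (-1.70 and -2.55), Igfbp4 (1.80 and 1.87) and Gsta1 (1.95 and 2.08) were not called as different, and the comparisons of EP and TA share their libraries.

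Against EC, 158 of 11352 genes (1.39%) differed in their response, 105 with a higher (0.925%) and 53 with a lower (0.467%) effect in EP. Fbp1, the gluconeogenic fructose bisphosphatase, was at 28.4, 26.6 and 29.0 CPM in EP of ENR- and 24.5 and 33.6 CPM in EP of -VE-organoids. In EC the same gene was at 108, 104 and 80.6 CPM and then 24.2 and 25.5 CPM, so that the groups were apart in EC and overlapped in EP, and the difference was 2.15 (SE 0.19, adjusted p = 2.69e-05). Ggt1, a brush border transferase, was at 1.33 to 3.39 CPM in EP and fell from 93.4 to 99.5 CPM to 31.8 and 21.8 CPM in EC, with a difference of 2.73 (adjusted p = 0.000884; 3.34 without -VE replicate 1, 1.94 and 0.0781 without -VE replicate 2). Guca2a (2.36, adjusted p = 0.0203), Vwce (2.11, adjusted p = 0.002) and Cyp3a11 (2.18, adjusted p = 0.0145) had positive differences as well. Their log2 was -2.23, -2.36 and -0.55 in EC and 0.14, -0.27 and 1.46 in EP. Guca2a had 2.42 and 2.31 without -VE replicate 1 and 2, and Vwce 1.69 without -VE replicate 2, where their calls ended. Cyp3a11 had 3.75 without -VE replicate 1 and 1.22 without -VE replicate 2, and DESeq2 did not call it (adjusted p = 0.0823).

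Lower effects in EP than in EC were led by Zg16, a goblet cell lectin, at -4.73 (adjusted p = 0.0039). It was at 2.40 to 4.59 CPM in EC of the ENR libraries and -VE replicate 1 and at 160 CPM in EC of -VE replicate 2, and without that library the difference was 0.61 (adjusted p = 0.831). Lgr5 was at 5.93, 6.45 and 7.22 CPM in EC of ENR- and 33.3 and 18.6 CPM in EC of -VE-organoids, against 22.7 to 33.9 CPM in EP of all 5 libraries, and the difference was -1.70 (SE 0.15, adjusted p = 2.69e-05). The distance between EP and EC in this stem cell gene was thus smaller in -VE-organoids. Upk3b, an uroplakin, was at 5.44, 5.30 and 4.53 CPM against 1.53 and 1.77 CPM in EP and at 16.8 to 26.9 CPM in EC of all libraries, a difference of -1.68 (adjusted p = 0.00362; 0.0695 without -VE replicate 1). Tmem237 (-1.46, adjusted p = 5.43e-05) and Timeless (-1.39, adjusted p = 0.0116; 0.114 without -VE replicate 1) completed the named differences.

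**Figure D5:**
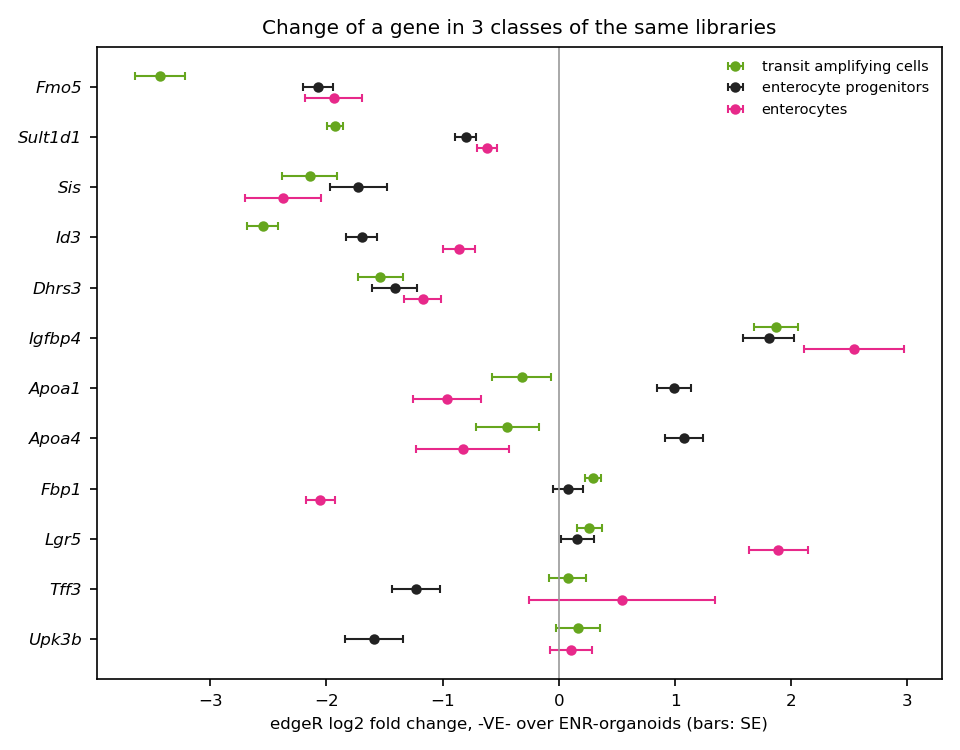
edgeR log2 fold change, -VE- over ENR-organoids, of 12 genes in TA (green), EP (black) and EC (magenta) of the same 5 libraries, with SE as bars. Fmo5, Sult1d1, Sis, Id3 and Dhrs3 lie below 0 in all 3 classes, Igfbp4 above 0 in all 3, Apoa1 and Apoa4 above 0 in EP alone, and Tff3 and Upk3b below 0 in EP alone.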

How the data were processed

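Single-cell libraries were 10x droplets of mouse organoid cells. Per the file headers and methods, the authors aligned and counted the reads against mm10 with Cell Ranger, for which the submitters' processing notes give version 3.0.0 and the matrix headers 3.1.0, and clustered and annotated cells with Seurat 3.1.4. The deposited values are raw UMI counts per gene and cell, not normalized, with 1 annotated class per cell. Annotated cells had at least 503 genes and at most 20.0% mitochondrial UMIs, whereas the methods state a minimum of 1500 genes. Over 969957540 organoid UMIs, 0 entries differed between the count table and the library matrices. The number of value columns left without a sample was 0. No doublet caller was run, and doublets were treated by the alternatives below.

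UMIs were summed per class and library, because cells of 1 library are not replicates. The 3 ENR and 2 -VE sums were compared with edgeR 4.0.16 (R 4.3.3; TMM, filterByExpr, quasi-likelihood F test, Benjamini-Hochberg adjustment), within EP, TA and EC and as the interaction of class and medium with the library as a block. A gene was called at an adjusted p under 0.05 and at least 2-fold. CPM are counts over the summed UMIs. SE is the log2 fold change divided by the square root of F. Class ratios used 5 CPM added to both sides, over genes of at least 10 CPM in some class. Intervals are exact binomial (Clopper-Pearson) or Poisson at 95% and cover counting error only. Tests were checked on simulated counts. For EP, 96% of genes changed by 1.5 and 100% of genes changed by 3 on the log2 scale were recovered, with 4 false calls among 11704 genes. For the interaction with TA these were 93% and 100%, with 7 false calls among 12865 genes. The simulation gave all genes and libraries 1 common spread and changed only well-counted genes. In EP the log CPM of the 2 -VE libraries correlated at 0.975, and those of any 2 ENR libraries at 0.991 or more. Pairs of 1 -VE and 1 ENR library lay between 0.974 and 0.983. The 2 -VE libraries were thus less alike than some pairs across the groups. The simulation therefore cannot show how the tests perform at the spread of these data. Plots were drawn with matplotlib 3.10.9.

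The members and the 30 gene lists were chosen with earlier results of these data known. The genes named were the label and study markers, the up to 12 largest called rises and falls of at least 20 CPM with groups apart, up to 4 of the highest and every called member of a list, and the 5 largest called differences in each direction of each interaction test at 20 CPM or more. Genes at least 2-fold apart between classes in all 5 libraries were named too, and Adh4 and Cyp1a1 were chosen after their values were seen. DESeq2 1.42.0, other filters, a culture series block, thinning, equal cell numbers, other cell filters and leaving out each library were the alternatives. Colonic libraries were not used here. An item that these rules would name is not reported here.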

Additional observations from a re-analysis of the deposited data

Results flagged for a closer look

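The -VE effect on EP differed from that on TA, by the interaction test in edgeR, in 19 genes (13 higher and 6 lower in EP). Named among them by size were Apoa4 (1.51 on the log2 scale), Fmo5 (1.37), Apoa1 (1.30), Sult1d1 (1.14) and Tff3 (-1.26). Apoa4 and Tff3 lost the difference without the 5% of cells richest in enterocyte markers (0.51) or in goblet and Paneth markers (-0.08).

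The same test set EP against EC in 158 genes. Named with a higher -VE effect in EP than in EC were Ggt1 (2.73), Guca2a (2.36), Cyp3a11 (2.18), Fbp1 (2.15) and Vwce (2.11). In the same order, their log2 was -1.95, -2.23, -0.55, -2.05 and -2.36 in EC and 0.75, 0.14, 1.46, 0.08 and -0.27 in EP. Apart from Cyp3a11, these differences came mostly from lower values in EC. Named with a lower -VE effect in EP than in EC were Zg16 (-4.73), Lgr5 (-1.70), Upk3b (-1.68), Tmem237 (-1.46) and Timeless (-1.39). In the same order, their log2 was 4.59, 1.89, 0.11, 1.48 and 1.21 in EC and -0.09, 0.16, -1.59, 0.02 and -0.18 in EP. Zg16 had 0.61 without -VE replicate 2 and -2.75 (adjusted p = 0.689) with DESeq2. Guca2a kept its size without -VE replicate 1 or 2 (2.42 and 2.31), but not its call. No group held 4 or more libraries, so single libraries were not examined as outliers by a formal criterion.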

How the results depend on the processing

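The 55 genes called in EP became 89 with DESeq2 (53 shared), 177 of 17940 with no filter on low counts, 26 of 7623 with at least 10 CPM in 2 libraries, 58 in thinned cells (34 shared) and 47 with equal numbers of cells. With the culture series as a replicate block there were 110 (53 shared), and it called Cfhr2 (-1.51, adjusted p = 0.0165), Isx (-1.58, 0.00818) and Alpi (1.26, 0.0492), which the fit of all cells without a block did not call. The labels do not say what the shared number marks. The deviations of same-numbered libraries correlated at 0.06 and -0.02 over 12138 genes, but with 2 -VE libraries, whose deviations mirror each other, this cannot show whether the numbers pair the libraries. Leaving out 1 library gave 7 to 91. Without the 5% of cells richest in enterocyte markers, or in goblet and Paneth markers, alternatives added after the data were seen, there were 58 each (50 and 51 shared). The 19 differences from TA became 10 with DESeq2, 7 with at least 10 CPM, 10 in thinned cells and 16 to 23 without 1 library. The 158 differences from EC became 79 in thinned cells and 59 to 227 without 1 library, lowest without -VE replicate 2 and highest without ENR replicate 3. With 1 CPM added in place of 5, 42 genes were 2-fold above TA, 27 below TA, 444 below EC and 1 above both, and 34 and 14 lay between. In thinned cells Cfhr2, Isx, Alpi, Rbp7 and Egr1 were called too, while Enpep, Adh4, Id2, Sp5 and Akr1c14 lost their call. The differences of Guca2a, Vwce, Upk3b and Timeless from EC also lost their call there, at sizes of 2.52, 3.02, -2.41 and -1.54. With equal numbers of cells Isx, Fabp1 and Apoa1 were called, and Cyp26b1, Id2, Sp5, Cyp4f14, Scarb1, Tff3 and Cyba were not. DESeq2 did not call Rragd (adjusted p = 0.129) or the Apoa4 difference from TA (0.24). Signs turned when 1 library was left out for Lgals2 (-0.34 to 0.016), Lgr5 (-0.15 to 0.43), Lyz1 (-0.55 to 0.53, and -0.14 with the replicate block) and the Zg16 difference from EC (-6.10 to 0.61). The cause was not tested. With 11414119 UMIs in EP of -VE-organoids, genes of a few UMIs, such as Cyp1a1 and Cyp26b1, are limited by depth.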
